A study of Oreochromis niloticus with 6 samples.

Results

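Cytochrome P450 genes were compared between livers of male Nile tilapia (Oreochromis niloticus) with elovl6 knocked down and livers of negative control males. A gene was taken where its product description holds the words cytochrome P450 or its name starts with cyp and a digit, unless its pathway annotation holds Steroid biosynthesis. The rule gave 77 of the 29528 genes in the table. Of these, 75 were found by description and 2 by name only, and none met the pathway exclusion. The 77 are 76 P450 genes and 1 gene for the reductase that feeds them electrons. They were ordered by the family number in the description: 4 in family 1, 53 in family 2, 7 in family 3, 3 in family 4, 2 described as 27C1, 3 described as forms of family 26, 3 steroid hormone forms of families 11 and 17, and 1 of family 20.

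Cytochrome P450 enzymes carry a heme and insert an oxygen atom into a substrate, using electrons that most of them receive from NADPH through P450 reductase. Families 1 to 3 in the liver oxidise drugs, pollutants, steroids and fatty acids, family 4 mainly oxidises fatty acids, and other families act on bile acid precursors, vitamins A and D and steroid hormones. Fish carry many copies of family 2 side by side on their chromosomes, and the descriptions name each copy after its closest match in another species, so a shared number does not make 2 genes counterparts.

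The knockdown group consisted of 3 libraries from males treated with antisense RNA against elovl6, an elongase of long-chain saturated and monounsaturated fatty acids. The negative control group consisted of 3 libraries from males given a control treatment that the labels do not describe. All fish ate pellets with 5% palm oil. Strain and age were not given. RNA of 9 fish per group from replicate tanks was pooled before library making, and the protocol does not say whether the 3 libraries of a group hold different fish, so each p-value measures the spread between libraries, which may be technical.

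Knockdown libraries held 14341242 to 14973737 counted reads and control libraries 15322360 to 17245179. The level of elovl6 was 39.3, 36.9 and 36.6 FPKM in knockdown libraries, against 163, 160 and 163 FPKM in control libraries (log2 fold change -2.12, SE 0.05). FPKM divides the reads of a gene by its length and by the reads of the whole library. Libraries of 1 group correlated at 0.993 to 0.996 over log2(FPKM + 1) of all genes, and the pairs of libraries within a group differed by more than counting error. Beside the counts of cell type markers stand 39.1% higher and 39.1% lower of all tested genes. Sums of markers cover every marker listed, tested or not. Of 17 tested hepatocyte markers 5 were higher and 11 lower (median log2 fold change -1.19). The hepatocyte markers summed to 97303 FPKM in knockdown and 99612 FPKM in control livers. Of these sums 1 apolipoprotein A-I gene (LOC100708634) made up 61891 and 49310 FPKM. Of 27 tested markers of exocrine pancreas, a tissue that in tilapia is scattered through the liver, 25 were lower in the knockdown. The pancreas markers summed to 273 to 448 FPKM in knockdown libraries, against 48182 to 48903 FPKM in control libraries, or 0.031% to 0.049% against 4.84% to 4.90% of reads. Of 34 erythrocyte markers 10 were tested, of which 9 were lower (2711 FPKM in knockdown, 17476 FPKM in control livers, summed). Of 20 leukocyte markers 9 were tested, of which 7 were higher and 2 lower (3390 FPKM in knockdown, 5253 FPKM in control livers, summed). The 3 tested endothelial and the 3 tested biliary markers were all higher. Of 7 intestinal markers 5 averaged under 0.1 FPKM over the 6 libraries, as did 6 of 10 kidney markers. Nephrin, podocin and uromodulin were among these kidney markers, at 0 in every library. The 7 intestinal markers summed to 4.15 FPKM in knockdown and 1.14 FPKM in control livers, and the 1 tested, a gastrotropin gene (LOC100706504), was higher (log2 fold change 2.16). The 10 kidney markers summed to 45.3 FPKM in knockdown and 69.9 FPKM in control livers, and of the 2 tested, both copies of solute carrier family 22 member 6, LOC100695173 was lower (-3.12) and LOC102079417 higher (0.28). The part of these cell types in the P450 results was not tested. In RNA of whole liver, fewer cells of a type and less RNA per cell cannot be told apart.

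The summed P450 level was lower in the knockdown, and the 3 genes highest in the control, all of family 2, held most of the difference. All 77 genes summed to 2370, 2331 and 2375 FPKM in knockdown libraries, against 3931, 3986 and 3942 FPKM in control libraries. They took 0.531% to 0.541% of reads in the knockdown and 0.920% to 0.938% in the control. The groups did not overlap in either measure. The 3 P450 genes with the highest level in control livers, which are copies of 2K1, 2F3 and 2J2, summed to 316 FPKM in knockdown and 1528 FPKM in control livers. That was 13.6% and 39.8% of all P450 FPKM. Their difference of -1212 FPKM made up most of the total P450 difference of -1515 FPKM. The other P450 genes summed to 2005 FPKM in knockdown and 2308 FPKM in control livers. Choosing genes by their control level favours genes that are lower in the knockdown. The 3 genes highest in the knockdown were LOC100694687 and LOC100699361, both higher there, and LOC100701642, which did not pass. The 10 P450 genes with the highest mean over the 6 libraries summed to 1326 FPKM in knockdown and 2514 FPKM in control livers. Of these, 4 were higher, 5 lower and 1 did not pass.

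**Figure D1:**
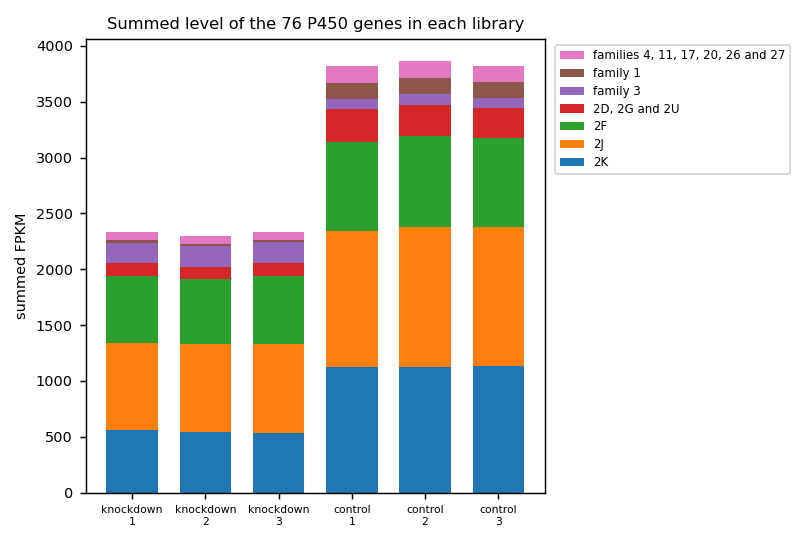
Summed FPKM of the 76 P450 genes in each library, stacked by subfamily, with the 3 knockdown libraries left of the 3 control libraries. The totals of the 3 knockdown libraries lie below those of the 3 control libraries, and the family 3 segment is taller in the knockdown (183 FPKM, against 94.9 FPKM in the control). The last segment pools families that differ in direction.

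Single members moved in both directions, in shares close to those of all genes where no minimum fold was required. Of the 77 members, 63 reached a mean level of 1 FPKM over the 6 libraries and were tested. By edgeR's quasi-likelihood test with Benjamini-Hochberg adjustment over all 11431 tested genes, 23 were higher in the knockdown, 27 were lower and 13 did not pass the threshold of 0.05. That is 36.5% higher and 42.9% lower, beside 39.1% higher and 39.1% lower of all tested genes (78.2% in either direction). The median log2 fold change was -0.02 for the tested members and -0.01 for all tested genes. With a change of at least 2-fold required as well, 10 of the 63 members were higher and 17 lower, beside 22.1% and 20.9% of all tested genes. At that threshold a smaller share of members than of all genes was higher, and a larger share was lower. This difference was not tested. The 3 knockdown and 3 control values did not overlap in 49 of the 63 (77.8%), with 23 higher and 26 lower in the knockdown, beside 79.5% of all tested genes (39.9% higher and 39.6% lower). These shares of genes without overlap are close to the background. The 14 untested members had at most 164 reads over the 3 libraries of a group, and 2 of them, cyp17a2 and the 2D15-like gene LOC100699259, had 0 reads in every library.

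**Figure D2:**
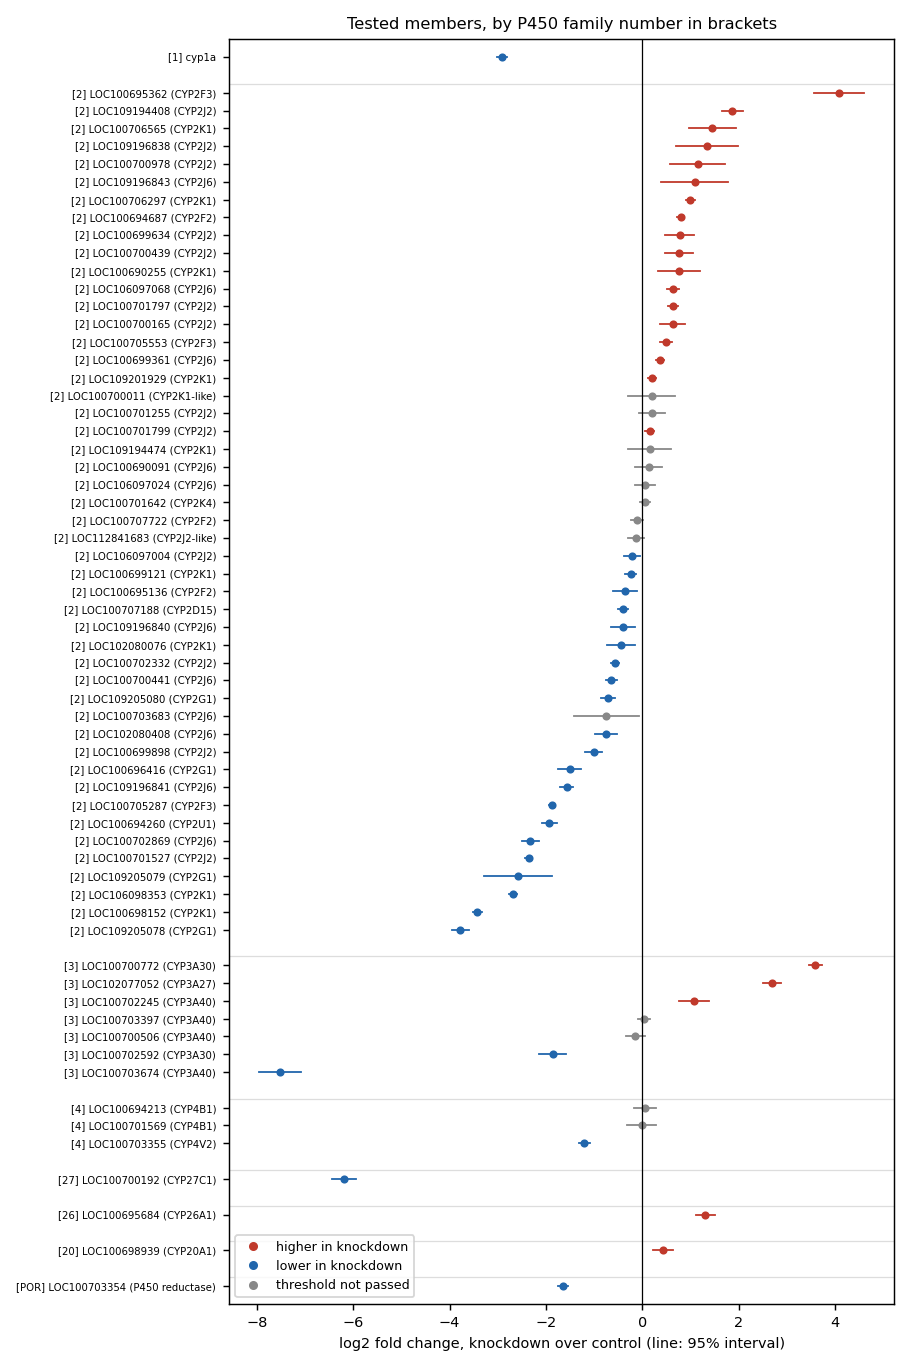
Log2 fold change, knockdown over control, of the 63 tested members, grouped by P450 family (number in brackets) and sorted within it; lines are 95% intervals. Values run from -7.52 (LOC100703674, a 3A40 copy) to 4.08 (LOC100695362, a 2F3 copy), and families 2 and 3 spread to both sides of 0. Each of these extreme genes passed the filter only through the group in which it was high.

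In family 1, whose members oxidise polycyclic aromatic hydrocarbons, cyp1a was the only gene read above the filter. This classic target of the aryl hydrocarbon (Ah) receptor is widely used as a marker of pollutant exposure in fish. Its level was 19.7, 19.3 and 17.7 FPKM in knockdown libraries, against 146, 142 and 138 FPKM in control libraries. Every knockdown library lay far below every control library. The gene was 7.55-fold lower (log2 fold change -2.92, SE 0.05, edgeR adjusted p = 3.04e-24). It lies on LG1 from 32779245 to 32782961, minus strand. The other 3 genes of the family were at the edge of detection: cyp1b1 had 8 reads in the knockdown and 16 in the control, and cyp1c1 had 19 and 34. LOC100710494, described as 1A1 and named cyp1d1 by RefSeq, had 24 reads in the knockdown and 29 in the control.

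Genes around the Ah receptor moved both ways. Of 11 tested genes of this list 6 were higher, 4 lower and 1 did not pass (median log2 fold change 0.44). All tested genes also moved both ways, with 39.1% higher and 39.1% lower. The receptor gene ahr2 was at 10.1, 9.47 and 9.79 FPKM in knockdown and 6.87, 7.54 and 6.58 FPKM in control libraries, so the groups did not overlap (log2 fold change 0.48, SE 0.07, edgeR adjusted p = 2.70e-06). Its partner arnt was higher too (LOC100708914, log2 fold change 0.90, SE 0.09). Another target of the receptor, tiparp, an ADP-ribosyltransferase that restrains it, was higher by 0.65 (SE 0.12), and a copy of the quinone reductase gene nqo1 (LOC100690079) by 0.71 (SE 0.09). Lower were both tested copies of the HSP90 co-chaperone prostaglandin E synthase 3, ptges3a (LOC100704884, log2 fold change -2.10, SE 0.13) and LOC100706085 (-1.60, SE 0.10). HSP90 itself, hsp90ab1, fell by 0.41 on the log2 scale. The values of ahr2, tiparp, nqo1 and hsp90ab1 are given although the naming rule did not take them.

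Family 2, the largest family, oxidises drugs, odorants, aflatoxin and polyunsaturated fatty acids. Its genes summed to 2044 ± 17.5 FPKM in knockdown and 3447 ± 17.8 FPKM in control livers (SD, n = 3 each). Of 48 tested members 18 were higher, 21 lower and 9 did not pass (median log2 fold change -0.03). That is close to the 39.1% higher and 39.1% lower of all tested genes. The same background shares stand beside the subfamily counts below. Those 9 had log2 fold changes of -0.75 to 0.19, and their 95% intervals together reached from -1.43 to 0.68. The 5 untested members included LOC100707453, a 2J5 copy with 89 reads in the knockdown and 39 in the control (ratio per library total 2.57, 95% interval 1.74 to 3.84 from counting error).

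Subfamily 2K was first studied in trout, where 2K1 hydroxylates lauric acid and activates aflatoxin. Of its 11 tested copies 4 were higher, 4 lower and 3 did not pass. The 2K1 copy LOC106098353 was the P450 gene with the highest level in control livers. It was at 90.8, 90.5 and 85.3 FPKM in knockdown libraries, against 572, 555 and 580 FPKM in control libraries. The drop put it ninth among the P450 genes of the knockdown (6.44-fold lower, log2 fold change -2.69, SE 0.04, edgeR adjusted p = 3.59e-26). A second 2K1 copy, LOC100698152, had 16.4, 16.3 and 16.5 FPKM in knockdown and 169, 179 and 177 FPKM in control libraries. It was lower by 10.7-fold (log2 fold change -3.42, SE 0.05, edgeR adjusted p = 2.32e-27). Its neighbour LOC100706565, another 2K1 copy, shares 334 bases with it on the same strand and went the other way, from a low level (312 reads in the knockdown and 127 in the control, log2 fold change 1.45, SE 0.25). The 2K1 copy LOC100706297 was higher by 0.99 on the log2 scale (SE 0.05). LOC100701642, described as 2K4, was the third most abundant P450 of the knockdown, at 190, 169 and 174 FPKM there and 161, 185 and 165 FPKM in the control. These values overlap, and the difference did not pass (log2 fold change 0.05, 95% interval -0.04 to 0.15, edgeR adjusted p = 0.322). With a minimum of 5 FPKM for testing, LOC100701642 passed as higher (adjusted p = 0.0481).

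Subfamily 2J, which in mammals makes epoxides of arachidonic acid, was the most numerous, with 11 of 25 tested copies higher, 9 lower and 5 not past the threshold. The copies summed to 791 ± 7.08 FPKM in knockdown and 1233 ± 15.4 FPKM in control livers. The 2J2 copy LOC100701527 was at 86.4, 92.1 and 88.7 FPKM in knockdown libraries, against 436, 464 and 465 FPKM in control libraries (5.14-fold lower, log2 fold change -2.36, SE 0.04, edgeR adjusted p = 3.08e-25). Every knockdown library lay far below every control library. In contrast, the 2J6 copy LOC100699361 was the second most abundant P450 of the knockdown, at 189, 180 and 190 FPKM, against 145, 145 and 140 FPKM in the control (log2 fold change 0.37, SE 0.04, edgeR adjusted p = 1.92e-08). The largest rise among 2J copies was in LOC109194408, a 2J2 copy (22.1 ± 1.97 FPKM in knockdown, 6.00 ± 0.641 FPKM in control livers, n = 3 each, log2 fold change 1.87, SE 0.11). One copy, LOC106097004, was called lower although its libraries overlapped (28.7, 35.6 and 26.97 FPKM in knockdown, 36.2, 35.1 and 34.3 FPKM in control; edgeR adjusted p = 0.0225). Its call was lost in 6 of the alternative settings tried.

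Subfamily 2F, whose mouse form 2F2 activates naphthalene and whose goat form 2F3 acts on 3-methylindole, split in the same way. Of 6 tested copies 3 were higher, 2 lower and 1 did not pass. The 2F3 copy LOC100705287 had 140, 137 and 137 FPKM in knockdown libraries, against 491, 516 and 505 FPKM in control libraries (3.67-fold lower, log2 fold change -1.87, SE 0.03, edgeR adjusted p = 1.71e-24). The 2F2 copy LOC100694687 instead was the most abundant P450 of the knockdown, at 338, 336 and 349 FPKM, against 198, 195 and 191 FPKM in the control. All knockdown libraries lay above all control libraries (log2 fold change 0.80, SE 0.04, edgeR adjusted p = 9.67e-16). The largest rise of all tested members was in LOC100695362, another 2F3 copy. With a control level below 1 FPKM, it passed the filter only through its knockdown level. It had 3.39, 3.36 and 4.21 FPKM in knockdown and 0.153, 0.239 and 0.245 FPKM in control libraries. Its 568 reads against 37 give a ratio per library total of 17.3 (95% interval 12.4 to 24.8 from counting error), with a fitted log2 fold change of 4.08 (SE 0.27, edgeR adjusted p = 4.81e-13).

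Subfamily 2G was lower throughout, with all 4 tested copies of 2G1, an enzyme of the olfactory lining in mammals, below the control. LOC109205078 was at 8.40, 7.27 and 8.19 FPKM in knockdown libraries, against 122, 105 and 98.9 FPKM in control libraries (13.8-fold lower, log2 fold change -3.78, SE 0.09, edgeR adjusted p = 3.91e-22). LOC109205079 was weakly read, with 0.948, 0.712 and 0.303 FPKM in knockdown and 4.97, 4.07 and 2.60 FPKM in control libraries (log2 fold change -2.58, SE 0.36, edgeR adjusted p = 5.14e-07). The groups did not overlap in either gene. The other copies, LOC100696416 and LOC109205080, had log2 fold changes of -1.51 and -0.72. Single genes of 2 other subfamilies were lower as well, LOC100694260 (cyp2u1, a fatty acid hydroxylase in humans) with a log2 fold change of -1.93 (SE 0.08) and LOC100707188 (2D15, after a drug-oxidising dog enzyme) with -0.40 (SE 0.05). LOC100701527, LOC100694687, LOC100699361, LOC100701642, LOC109194408, LOC106097004, LOC100706565 and LOC100706297 were described in more detail after their values had been seen.

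**Figure D3:**
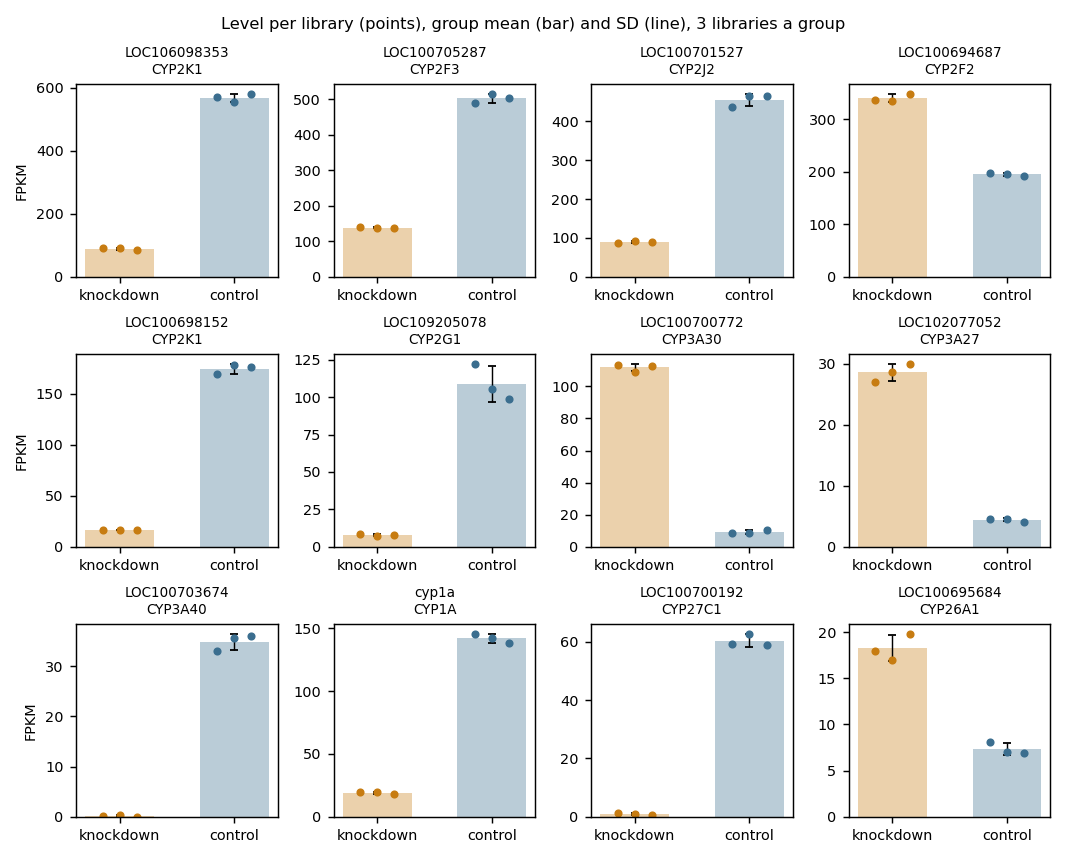
FPKM per library of 12 P450 genes, with knockdown left of control; points are libraries, bars are means and lines are standard deviations, and each panel has its own axis from 0. All 12 were chosen from the called members, so their lack of overlap between groups adds no support. Groups did not overlap in 79.5% of all tested genes. Of the 12, 4 genes (LOC100694687, LOC100700772, LOC102077052 and LOC100695684) stand higher in the knockdown and 8 lower.

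The summed level of family 3 was higher in the knockdown, at 185, 180 and 185 FPKM in knockdown libraries, against 89.0, 100.1 and 95.8 FPKM in control libraries. Its 3A enzymes oxidise steroids, bile acids and many drugs, and the names 3A27, 3A30 and 3A40 come from other fish. Of 7 tested genes 3 were higher, 2 lower and 2 did not pass (median log2 fold change 0.04), beside 39.1% higher and 39.1% lower of all tested genes. The 3A30 copy LOC100700772 made up most of the summed level of the knockdown. Without it the family summed to less in the knockdown than in the control. LOC100700772 was at 114, 109 and 113 FPKM in knockdown libraries, against 8.64, 8.69 and 10.4 FPKM in control libraries (12.02-fold higher, log2 fold change 3.59, SE 0.07, edgeR adjusted p = 4.29e-24). Also higher was the 3A27 copy LOC102077052, at 27.1, 28.6 and 30.01 FPKM in knockdown and 4.53, 4.55 and 4.12 FPKM in control libraries (log2 fold change 2.69, SE 0.09, edgeR adjusted p = 1.01e-18). The 3A40 copy LOC100702245 was at 12.5, 11.2 and 11.1 FPKM, against 3.95, 7.11 and 5.39 FPKM in the control (log2 fold change 1.08, SE 0.16, edgeR adjusted p = 1.38e-06). No group overlapped its counterpart in these 3 genes. All 5652 bases of LOC100702245 lie within LOC100700506, a further 3A40 copy on the opposite strand. The strand setting of the counting was not given.

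The largest fall of all tested members was in another 3A40 copy, LOC100703674, which passed the filter only through its control level. It was at 0.158, 0.412 and 0 FPKM in knockdown libraries, against 33.1, 35.6 and 36.0 FPKM in control libraries. With 18 reads in the knockdown and 3768 in the control, the control had 186 times as many reads per library total (95% interval 118 to 315 from counting error). The fitted log2 fold change was -7.52 (SE 0.22, edgeR adjusted p = 3.38e-20). LOC100703674 lies on LG13 from 10192629 to 10199263 on the plus strand, only 1309 bases from LOC102077052, which lies from 10200573 to 10216646 on the minus strand and was higher. A 3A30 copy of the same cluster, LOC100702592, was lower, at 4.33, 3.30 and 2.87 FPKM in knockdown and 11.3, 13.5 and 13.0 FPKM in control libraries (log2 fold change -1.86, SE 0.15, edgeR adjusted p = 1.83e-11). The 3A40 copies LOC100703397 and LOC100700506 did not pass (log2 fold changes 0.04 and -0.14), although LOC100700506 passed as lower without a filter on low values (adjusted p = 0.0419).

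In family 4, cyp4v2a (LOC100703355), whose human counterpart 4V2 hydroxylates fatty acids, was lower and the 4B1 copies did not pass. The level of cyp4v2a was 24.1, 24.5 and 26.4 FPKM in knockdown libraries, against 57.3, 58.2 and 56.2 FPKM in control libraries, with no overlap (2.30-fold lower, log2 fold change -1.20, SE 0.06, edgeR adjusted p = 1.52e-15). The 4B1 copy LOC100694213 was at 10.4, 8.12 and 9.95 FPKM in knockdown and 9.52, 8.77 and 8.86 FPKM in control libraries (log2 fold change 0.06, 95% interval -0.17 to 0.29). The other 4B1 copy, LOC100701569, was at 6.70, 6.32 and 5.36 FPKM in knockdown and 5.75, 6.70 and 6.02 FPKM in control libraries (log2 fold change -0.02, 95% interval -0.32 to 0.29). Values of both 4B1 copies overlapped between the groups.

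Of the genes described as 27C1 and as forms of family 26, 1 each was tested, and these changed in opposite directions. LOC100700192, described as 27C1 and named cyp27c1 by RefSeq, belongs to an enzyme that in zebrafish converts vitamin A1 to vitamin A2. It was at 1.22, 0.788 and 0.487 FPKM in knockdown libraries, against 59.3, 62.8 and 58.9 FPKM in control libraries. With 99 reads in the knockdown and 8115 in the control, it was 73.1-fold lower (log2 fold change -6.19, SE 0.12, edgeR adjusted p = 1.21e-23), and the groups lay far apart. The gene lies on LG1 from 14799580 to 14808191, plus strand. The second gene described as 27C1, LOC100705229, is named cyp27a2 by RefSeq, and stayed below the filter with 104 reads in the knockdown and 164 in the control. LOC100695684 (cyp26a1), which degrades retinoic acid and is induced by it, was at 18.0, 17.0 and 19.8 FPKM in knockdown libraries, against 8.06, 7.05 and 6.92 FPKM in control libraries (2.47-fold higher, log2 fold change 1.31, SE 0.10, edgeR adjusted p = 2.07e-11). All knockdown values lay above all control values. The other forms of family 26 had 0 reads in the knockdown and 12 (LOC100690880, cyp26b1) and 5 (LOC100705715, cyp26c1) in the control, so no direction is read from them.

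Genes of vitamin A and D handling moved both ways. Of 33 genes of the list 12 were tested, and 2 were higher, 6 lower and 4 did not pass (median log2 fold change -0.44), beside 39.1% higher and 39.1% lower of all tested genes. The vitamin A carrier of the cell rbp2 was lower (log2 fold change -2.06, SE 0.05), and so was bco1, which cleaves carotene (LOC100692880, -2.07, SE 0.25). The vitamin D3 receptor B gene LOC100695813 was higher (2.54, SE 0.21). The blood carrier of vitamin A, rbp4, was at 1540, 1509 and 1524 FPKM in knockdown and 4423, 4259 and 4272 FPKM in control libraries (log2 fold change -1.51, SE 0.03). It was named after its values had been seen.

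Outside the rule, the steroid hydroxylase gene LOC100703376 (cyp21a2) was lower (log2 fold change -1.17, SE 0.04, edgeR adjusted p = 2.08e-18). It was at 97.6, 92.1 and 95.8 FPKM in knockdown and 205, 217 and 216 FPKM in control libraries. The 3 steroid hormone forms that the rule took were close to silent in both groups. The gene cyp11b, which makes glucocorticoids and androgens, had 9 reads in the knockdown and 6 in the control, and cyp17, a maker of androgens, had 1 and 0. LOC100698939 (cyp20a1), a P450 of unknown function, was slightly higher, at 13.5, 15.4 and 13.96 FPKM in knockdown and 11.8, 9.99 and 10.0 FPKM in control libraries (log2 fold change 0.42, SE 0.11, edgeR adjusted p = 0.00102).

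Genes for electron supply and heme were mainly lower. The P450 reductase gene LOC100703354 (porb) was at 36.5, 34.7 and 40.9 FPKM in knockdown libraries, against 111, 121 and 117 FPKM in control libraries, without overlap (3.13-fold lower, log2 fold change -1.65, SE 0.05, edgeR adjusted p = 8.41e-20). Of 21 tested genes for electron donors and heme 3 were higher, 15 lower and 3 did not pass. Among all tested genes 39.1% were higher and 39.1% lower. The median log2 fold change of that list was -0.84, beside -0.01 for all tested genes. Lower were ferrochelatase, fech, which puts iron into heme (log2 fold change -2.51, SE 0.12), the mitochondrial electron carrier fdx1 (-2.35, SE 0.18) and pgrmc1, a heme-binding partner of P450 enzymes (-2.20, SE 0.04). Among genes the naming rule did not take, cytochrome b5, cyb5a (LOC100697360), fell by 1.60 on the log2 scale, while alas1, the first step of heme synthesis, and fdxr, which reduces fdx1, were higher (0.82 and 1.60). Erythrocytes also make heme, and 9 of 10 tested erythrocyte markers were lower. Their part in the lower fech and hmbs (-2.08) was not tested.

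**Figure D4:**
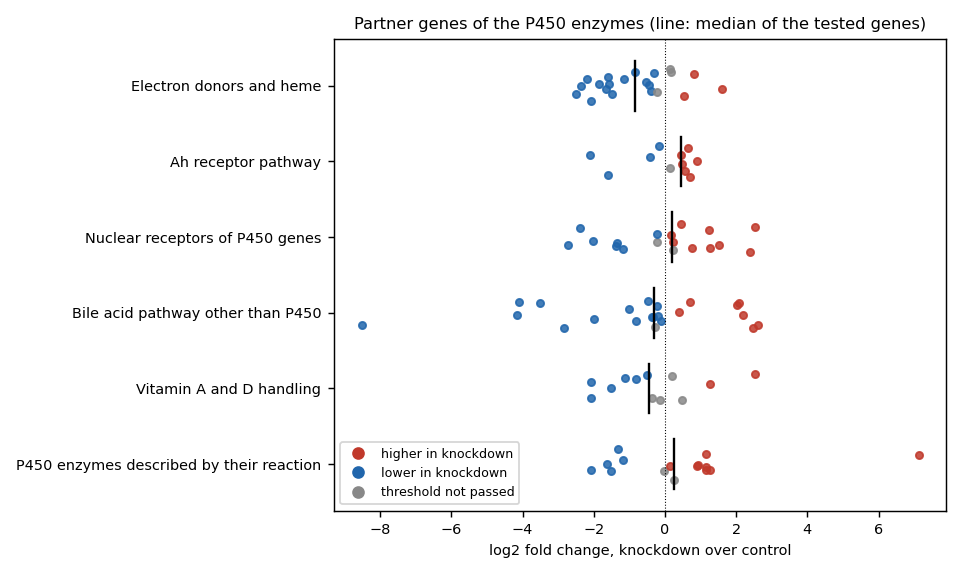
Log2 fold change, knockdown over control, of the tested genes of 5 lists of partner genes and of P450 enzymes that are described by their reaction; points are genes and black lines are medians. The electron donor and heme list has its median at -0.84, the lists of the Ah receptor and of nuclear receptors at 0.44 and 0.20.

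Of the nuclear receptors and signals that act on P450 genes, 9 of 18 tested were higher, 7 lower and 2 did not pass (median log2 fold change 0.20). The background was 39.1% higher and 39.1% lower of all tested genes. Besides the vitamin D3 receptor, fgfr4 (LOC100692465), the receptor through which FGF19 restrains bile acid synthesis, was higher (2.39, SE 0.18). LOC100706680, described as a protein related to the coactivator of peroxisome proliferator-activated receptor gamma, was lower (-2.73, SE 0.18). The copies of the bile acid receptor, named after their values had been seen, went apart. The gene nr1h4 was at 12.3, 13.0 and 12.9 FPKM in knockdown and 33.2, 32.4 and 32.3 FPKM in control libraries (log2 fold change -1.37, SE 0.08), and nr1h5 (LOC100699579) was at 19.3, 18.1 and 17.5 FPKM, against 7.18, 8.01 and 7.91 FPKM (1.24, SE 0.07). The gene nr0b2, a bile acid receptor target that represses bile acid synthesis, was higher (1.26, SE 0.12). It too was named after its values had been seen, and its link to either copy was not tested.

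P450 enzymes of bile acid synthesis are mostly described by their reaction and so fall outside the rule. A list of 22 P450 genes described by their reaction was drawn up after the table had been seen. It also holds P450 genes of other pathways, such as thromboxane and prostacyclin synthases, aromatases and a steroid hydroxylase. Its counts therefore do not describe bile acid synthesis alone. Of the list 15 were tested, of which 8 were higher, 5 lower and 2 did not pass. The log2 fold changes of the 15 tested genes ran from -2.08 to 7.12 (median 0.25). At least 2-fold higher were 5 genes, and 5 were at least 2-fold lower. The 5 that rose at least 2-fold, with the change of 7.12 among them, are not among the P450 genes named below. The genes named below therefore do not stand for the whole list. LOC100709377 (cyp7a1), the rate-limiting enzyme of bile acid synthesis, was at 1.79, 1.38 and 1.43 FPKM in knockdown and 6.63, 6.29 and 6.42 FPKM in control libraries (log2 fold change -2.08, SE 0.16, edgeR adjusted p = 1.29e-11). In the alternative route, cyp7b1 (LOC100694909) was lower (-1.51, SE 0.11) and the sterol 26-hydroxylase LOC100693469 did not pass (-0.02, SE 0.05; adjusted p = 0.0376 as lower without a filter on low values). Copies of the 12-alpha-hydroxylase, which sets the ratio of bile acids, differed in direction, and not every tested copy is named here. LOC109195699 was lower (84.1, 91.3 and 80.0 FPKM in knockdown, 258, 263 and 259 FPKM in control libraries), while the most abundant copy LOC100693750 was little higher (580, 599 and 588 FPKM, against 536, 539 and 531 FPKM, log2 fold change 0.13). The log2 fold change of LOC100693750 was 0.03 without a filter on low values and no longer passed. Of a list drawn up for the bile acid pathway other than P450, 22 genes were tested. Of these, 7 were higher, 14 lower and 1 did not pass (median log2 fold change -0.31). Beside both lists stand the shares of all tested genes, 39.1% higher and 39.1% lower. The lowest were the acyl-CoA synthetase copies LOC109201949 (-8.52, SE 0.38) and LOC102079190 (-4.16, SE 0.12) and the sterol exporter abcg5 (-4.11, SE 0.14). Both synthetase copies are described only as very long-chain acyl-CoA synthetase, which does not name bile acids. The gene hsd3b7, the step after cyp7a1, was higher (2.47, SE 0.07), and was named after its values had been seen.

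Most members lie in tandem clusters, and copies within a cluster often differed in direction. All tested genes also split, with 39.1% higher and 39.1% lower, so mixed directions are not read as a trait of the clusters. Placing members with at most 100 kb between neighbours together gave 10 clusters that hold 61 of the 77 genes, 9 of them above the filter. On LG23, 24 copies of 2J lie between 39333659 and 39628244, 16 on the plus and 8 on the minus strand. Of the 8 tested copies up to LOC100702332, 6 were lower and none higher. Of the 15 that follow, 10 were higher and 3 lower. The position of that split was chosen after the values had been seen and was not tested. On LG14, the 4 lower 2G1 copies and the lower LOC100705287 lie between 2 higher copies of 2F3. On LG6, 2 of 3 copies of 3A were higher and none lower, whereas the 4 copies of 3A on LG13 hold the largest fall and the second largest rise of the family.

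Where several copies are alike or overlap, counting may assign reads to the wrong copy. Of the tested members 19 overlap another gene, with 10 higher, 4 lower and 5 not past the threshold. The other 44 had 13 higher, 23 lower and 8 not past it. Of all tested genes 39.1% were higher and 39.1% lower, and the contrast between the 19 and the 44 was not tested. Among those 19, LOC100695362 shares 205 bases and LOC100702592 shares 657 bases with a gene on the opposite strand. With all reads of a cluster summed to 1 feature before the fit, an alternative added after the data were seen, 78.2% of all features were called. The 2J cluster on LG23 was then lower (log2 fold change -0.68, SE 0.03), as were the clusters on LG14 (-1.61, SE 0.03), LG15 (-1.29, SE 0.03), LG4 (-0.67, SE 0.03) and LG13 (-0.26, SE 0.05). Higher were the 3A cluster on LG6 (2.17, SE 0.06), the cluster of 2F and 2D on LG7 (0.39, SE 0.03) and the small 2J cluster on LG23 (0.57, SE 0.05). The 4B1 cluster on LG11 did not pass (0.04, SE 0.09). On LG4, 3 of 5 copies were higher, yet the sum was lower, since LOC100698152 held most of the reads in the control.

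**Figure D5:**
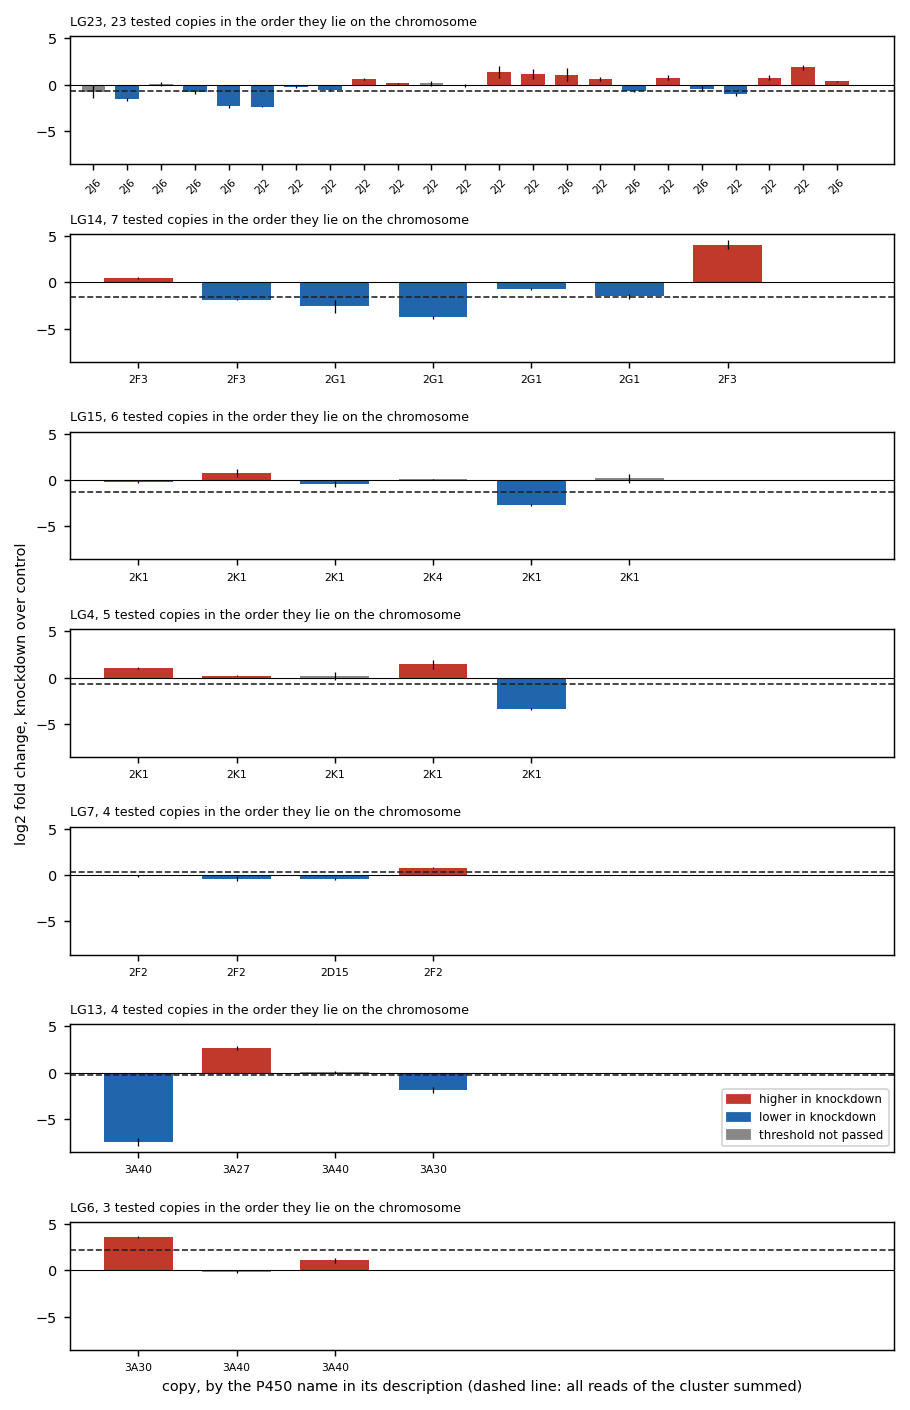
Log2 fold change, knockdown over control, of the tested copies in the 7 tandem clusters with more than 2 members, in the order in which they lie on the chromosome; black lines on bars are 95% intervals. The dashed line is the fit to the summed reads of the cluster, at -0.68 for the 2J cluster on LG23 and 2.17 for the 3A cluster on LG6.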

How the data were processed

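RNA-seq of 6 liver libraries, 3 per group, was analysed from 1 table. It pairs each gene, per the file headers, with a deposited read count and the authors' FPKM. The deposited FPKM equalled the count divided by gene length and library total in 100% of values (relative tolerance 1e-05). The submitters' processing notes name cutadapt 1.9 and HISAT. Which counting program, strand setting, multi-mapping rule and assembly were chosen was not given in the sources used here. Gene starts and ends equalled those of RefSeq's O_niloticus_UMD_NMBU assembly in 99.99% of matched genes, and all 77 members matched it, 16 with a symbol.

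Counts were tested with edgeR 4.0.16 (R 4.3.3): quasi-likelihood, TMM scaling, no covariate, mean FPKM of at least 1, Benjamini-Hochberg adjustment, threshold 0.05, no minimum fold. The 11431 tested genes held 99.0% of reads. All adjusted p-values are from edgeR. SE is the size of the log2 fold change divided by the square root of F. All 95% intervals of log2 fold changes use the SE and a normal approximation, and those of ratios of reads are exact (Clopper-Pearson) and cover counting error only. The procedure was tested on simulated counts in which few genes changed. That test does not cover a setting in which 78.2% of tested genes are called. The rule for named genes took, per family, the 5 changed members at most that moved furthest, the 2 most abundant and every tested member of groups with at most 4. For partner lists it took the reductase and at most 3 changed genes that moved furthest. The members and lists were chosen with earlier results of these data known. Alternatives were DESeq2 1.42.0, limma 3.58.1, other scalings and filters, a replicate block and each library left out.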

Additional observations from a re-analysis of the deposited data

How the results depend on the processing

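Under 15 alternatives, 1472 of 1495 refits of 92 genes and the clusters kept direction and call, none turned round, and 23 crossed the threshold. LOC106097004 lost its call in 6 of them. The 92 genes are the 63 tested members, the partner genes that the naming rule took and the tested P450 genes described by their reaction. Partner genes named outside that rule, such as ahr2, rbp4, nr1h4 and hsd3b7, are not among the 92. With the replicate number as a block, 23 members were higher and 28 lower, since LOC100703683 then passed (adjusted p = 0.0366). Deviations of same-numbered libraries correlated at 0.001 to 0.007, so no pairing by number was seen in these values. Leaving out 1 library gave 23 higher and 25 to 29 lower members, with 19 to 23 lower in family 2. Leaving the exocrine pancreas genes out of the scaling changed no call among the 92 genes. Requiring 2-fold left 10 members higher and 17 lower, 6 and 11 in family 2, 1 higher electron donor gene, 0 higher and 2 lower Ah receptor genes, 5 higher nuclear receptor genes and 7 lower bile acid genes. A minimum of 5 FPKM left 3 higher Ah receptor genes, 3 lower nuclear receptor genes, 3 higher and 9 lower bile acid genes and 1 higher vitamin gene. Without a filter, 4 vitamin genes were higher and 10 lower. Both filters change which genes are tested. The log2 ratio of sums was -0.79 in CPM in place of -0.74 in FPKM for all members, -0.77 in place of -0.75 for family 2 and 0.73 in place of 0.95 for family 3, since CPM ignores gene length. Scalings moved the median of all genes by at most 0.0123 on the log2 scale, and leaving out the filter by 0.0545. Members below the filter hold at most 164 reads per group, which limits their precision.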
